A study of Mus musculus and Homo sapiens with 4 samples.

Results

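Androgens are steroid hormones that act on prostate cells by changing transcription. Genes that respond to them serve secretion, lipid and sugar metabolism, growth control and feedback on the hormone response, and pioneer factors such as FOXA1 open the chromatin at many of their enhancers. A panel of such genes is commonly read as a measure of the androgen response in prostate cancer cells. The 34 genes described here are a list of known androgen-responsive genes, matched by symbol. The match by symbol uses no measured value, but the list was drawn up with earlier results of these data known. For a symbol on several entries, the rule takes the entry of highest mean level. All 34 were found among the 29375 distinct symbols of the VCaP data, each on exactly 1 entry, so that choice did not arise for them.

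The comparison is between 2 human libraries. The first is labelled VCaP, a prostate cancer cell line, at passages 5 to 6. The second is labelled VCaP ERα, a VCaP line that overexpresses oestrogen receptor alpha (ERα, encoded by ESR1), at passages 4 to 5. Whether that line is 1 clone is not given in the sources used here. Both were grown in DMEM with fetal bovine serum, and the labels name no added hormone. Ribosomal RNA was removed and the strand was kept. The study made the pairwise comparison to find genes that are upregulated with ERα. The authors deposited 1 RPKM value (reads divided by entry length and by the library's mapped reads) for each of 25932 entries, and genes can therefore be compared with each other within a library. Each condition has 1 library, so the differences lack a replicate check and are given without P-values. The log2 ratio used below is log2((VCaP ERα + 1)/(VCaP + 1)) of the RPKM values. It understates the change of genes with low values.

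ESR1 had 15.7 RPKM in the library labelled VCaP against 209 RPKM in the library labelled VCaP ERα, in the direction of the labels. The library labelled VCaP did not carry the markers of its label. Of 10 prostate luminal markers, 3 reached 1 RPKM there against all 10 in VCaP ERα. Their levels ranged from 0 to 8.18 RPKM in the library labelled VCaP and from 3.16 to 694 RPKM in VCaP ERα. Of 9 luminal breast markers, 6 reached 1 RPKM in the library labelled VCaP, up to 1596 RPKM for TFF1, and 2 did in VCaP ERα. The other marker lists were low in VCaP ERα, where basal epithelial markers ranged from 0.0400 to 1.19 RPKM, stromal markers from 0 to 1.18 RPKM and leukocyte markers from 0 to 0.258 RPKM. In the library labelled VCaP, 3 of 5 basal markers reached 1 RPKM, up to 38.9 RPKM for KRT17, whereas 0 of 6 stromal and 0 of 5 leukocyte markers did. Every difference below rests on these 2 libraries, so a change of androgen response, of cell type or of culture cannot be told apart. In bulk RNA, fewer cells of a type and less RNA per cell cannot be told apart either.

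The androgen-responsive genes were mostly higher in VCaP ERα. Of the 34 genes, 29 were higher and 5 lower, with a median log2 ratio of 2.20. A log2 ratio above 2, the selection threshold of the study, was reached by 18 genes (52.9%), whereas 2.37% of all symbols reached it. Above 1 were 21 genes (61.8%), against 9.25% of all symbols. In the opposite direction 2 genes (5.88%) lay below -2, near the 6.87% of all symbols, and the same 2 genes were the ones below -1, where 19.9% of all symbols lay. The remaining 11 genes lay within 1 of 0. Many symbols are barely expressed, so the share above 2 was also taken over the 16885 symbols with at least 1 RPKM in 1 library, where it was 4.12%. The median log2 ratio of those symbols was -0.52. Entries that reached 1 RPKM in each library had a median of -0.59, and when ratios were centred on it 4.88% of all symbols lay above 2 and 3.50% below -2.

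**Figure D1:**
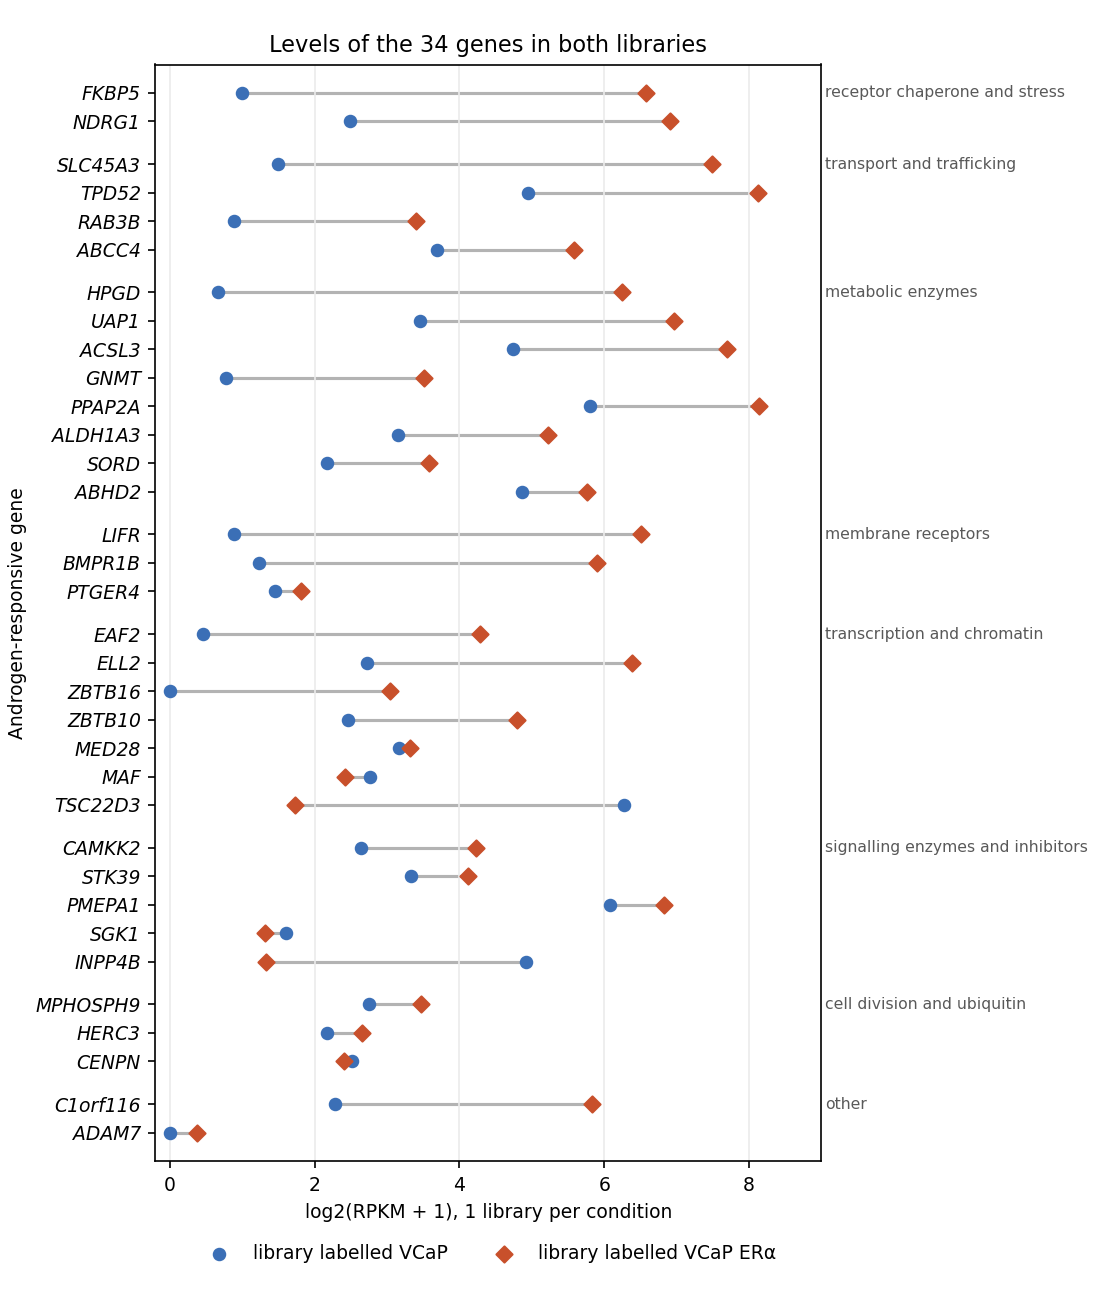
Levels of the 34 androgen-responsive genes as log2(RPKM + 1), with the library labelled VCaP as circles, the library labelled VCaP ERα as diamonds, and a line joining the values of a gene. Genes are grouped by role, and the diamond lies to the right of the circle for 29 of the 34 genes, with TSC22D3 and INPP4B showing the widest gaps in the other direction.

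The receptor chaperone and stress genes, a pair, had the highest median log2 ratio of the role groups, 5.00. FKBP5 (chromosome 6, 35649345 to 35812702 of hg18, the human build in the submitters' processing notes, on which all positions here are given) encodes an immunophilin that acts with HSP90 on steroid receptors and is among the most androgen-responsive genes. It had 0.999 RPKM in the library labelled VCaP against 94.2 RPKM in VCaP ERα, with a log2 ratio of 5.57. By level it stood at rank 11772 of the 25932 entries in the first library and at rank 287 in the second. NDRG1 (chromosome 8, 134318596 to 134379011), a stress- and differentiation-responsive gene, had 4.61 and 119 RPKM, a log2 ratio of 4.42. Both genes were therefore low or moderate in the library labelled VCaP and among the highest entries in VCaP ERα.

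Genes of transport and vesicle trafficking were all higher in VCaP ERα. SLC45A3 (chromosome 1, 203893604 to 203916253), which encodes the prostate membrane transporter prostein, had the largest log2 ratio of the 34 genes, 6.00, with 1.81 and 179 RPKM. By log2 ratio it stood at rank 19 among all entries. TPD52 (chromosome 8, 80993650 to 81246391), a vesicle-trafficking protein often overexpressed in prostate cancer, was at 29.7 RPKM in the library labelled VCaP and had 277 RPKM in VCaP ERα, with a log2 ratio of 3.18. RAB3B, a small GTPase of secretory vesicles, had 0.845 and 9.51 RPKM, a log2 ratio of 2.51. ABCC4, an efflux transporter of organic anions and cyclic nucleotides, had 11.9 and 47.0 RPKM, a log2 ratio of 1.89, just under the threshold.

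The 8 metabolic enzymes were also higher without exception, 6 of them by a log2 ratio above 2, and their median log2 ratio was 2.53. HPGD (chromosome 4, 175647955 to 175680186), which inactivates prostaglandins, had 0.592 and 75.2 RPKM, a 127-fold difference and a log2 ratio of 5.58. UAP1, which makes UDP-N-acetylglucosamine for glycosylation, had 10.0 and 124 RPKM, a log2 ratio of 3.51. ACSL3 (chromosome 2, 223433976 to 223517600), which activates long-chain fatty acids, had 25.7 and 207 RPKM, a log2 ratio of 2.96. These 3 enzymes thus had very different levels in the library labelled VCaP and between 75.2 and 207 RPKM in VCaP ERα. PPAP2A (chromosome 5, 54756440 to 54866630), a lipid phosphate phosphatase, was the highest of all 34 genes in VCaP ERα with 280 RPKM. It had 55.1 RPKM in the library labelled VCaP, a log2 ratio of 2.33. GNMT, a methyltransferase that consumes S-adenosylmethionine, had 0.714 and 10.4 RPKM (log2 ratio 2.73). ALDH1A3, which makes retinoic acid, had 7.87 and 36.4 RPKM, and its log2 ratio of 2.08 was the smallest above the threshold. The last enzymes stayed below it. SORD, which converts sorbitol to fructose, had 3.51 and 11.0 RPKM (log2 ratio 1.41, but 2.07 after quantile normalization). The lipase ABHD2 had 28.0 and 53.3 RPKM (0.91).

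Membrane receptors divided into a pair with large differences and 1 gene with a small one. LIFR (chromosome 5, 38510822 to 38631264), the receptor of leukaemia inhibitory factor, had 0.853 and 89.7 RPKM, a log2 ratio of 5.61. BMPR1B (chromosome 4, 95898151 to 96298624), a type I receptor for bone morphogenetic proteins, had 1.34 and 58.9 RPKM, a log2 ratio of 4.68. By contrast PTGER4, a receptor for prostaglandin E, had 1.73 and 2.50 RPKM, a log2 ratio of 0.36. The 3 receptors lay close together in the library labelled VCaP, from 0.853 to 1.73 RPKM, and spread from 2.50 to 89.7 RPKM in VCaP ERα.

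**Figure D2:**
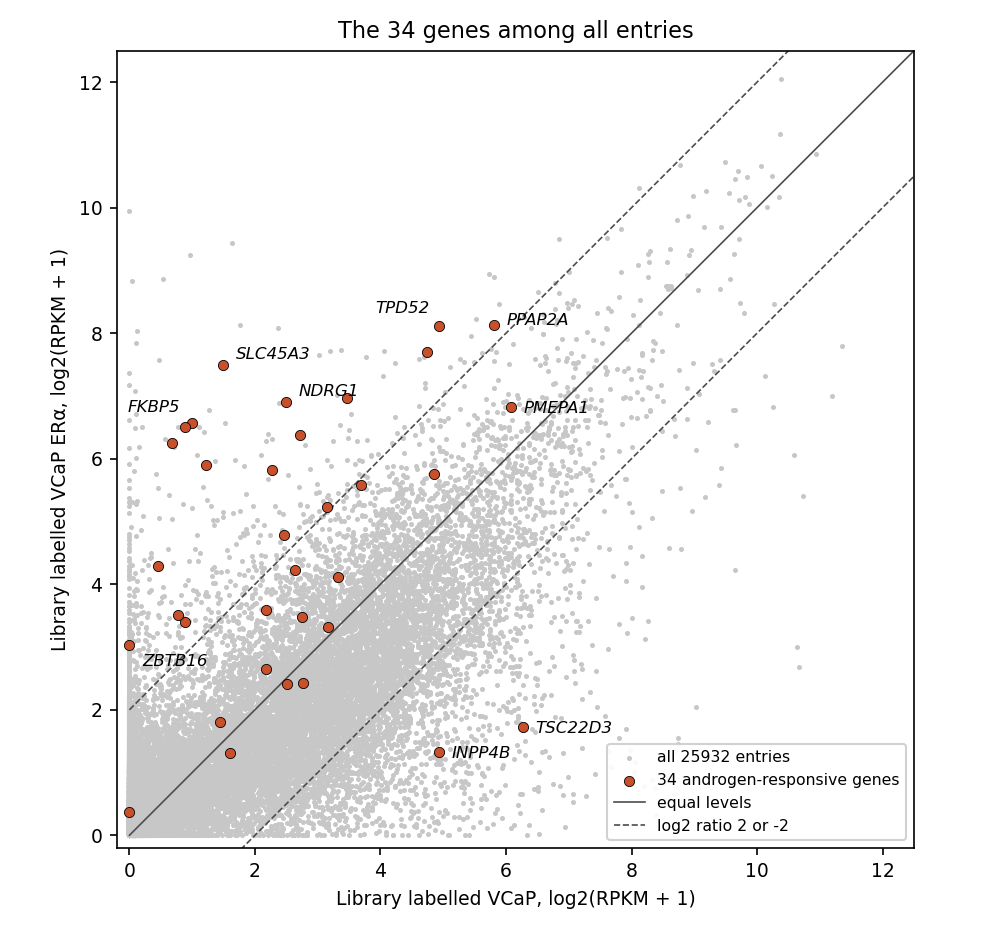
Each of the 25932 entries is a grey point at its log2(RPKM + 1) in the library labelled VCaP (x axis) and in the library labelled VCaP ERα (y axis), and the 34 androgen-responsive genes are coloured. The solid line marks equal levels and the dashed lines log2 ratios of 2 and -2; 18 of them lie above the upper dashed line and 2, TSC22D3 and INPP4B, below the lower one.

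Regulators of transcription went in both directions. EAF2 and ELL2 encode partners in transcription elongation. EAF2 (chromosome 3, 123036724 to 123088063) had 0.376 and 18.5 RPKM, a log2 ratio of 3.82, and ELL2 (chromosome 5, 95246558 to 95323531) had 5.58 and 82.2 RPKM, a log2 ratio of 3.66. The log2 ratios of this pair were thus close, while EAF2 was the lower gene in both libraries. The zinc finger repressor ZBTB16, also known as PLZF, was listed at 0 in the library labelled VCaP and at 7.20 RPKM in VCaP ERα, with a log2 ratio of 3.04. Its relative ZBTB10 had 4.51 and 26.7 RPKM, a log2 ratio of 2.33. The Mediator subunit gene MED28 had 7.93 and 8.94 RPKM (log2 ratio 0.15), and the transcription factor gene MAF had 5.82 and 4.37 RPKM (-0.34). The exception of this group was TSC22D3 (chromosome X, 106843108 to 106905858), which encodes the glucocorticoid-induced leucine zipper. It had 76.1 RPKM in the library labelled VCaP, the highest level of the 34 genes there, and 2.31 RPKM in VCaP ERα. Its log2 ratio of -4.54 was the lowest of the list, and 0.474% of all entries lay below it.

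The signalling enzymes and inhibitors held no gene above 2 in the ratios as deposited. CAMKK2, a calcium-dependent kinase upstream of AMPK, had 5.25 and 17.7 RPKM, a log2 ratio of 1.58. It passed 2 when ratios were centred (2.17) or the libraries quantile normalized (2.28). The kinase gene STK39 had 9.03 and 16.4 RPKM (log2 ratio 0.80). PMEPA1, which restrains TGF-β signalling, was high in both libraries, with 66.4 and 112 RPKM and a log2 ratio of 0.75. SGK1, a kinase induced by steroid hormones, was low in both, with 2.04 and 1.48 RPKM (-0.29). INPP4B (chromosome 4, 143168632 to 143987054), a phosphoinositide phosphatase that restrains AKT signalling, went the other way, with 29.4 RPKM in the library labelled VCaP against 1.51 RPKM in VCaP ERα, with a log2 ratio of -3.60.

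Cell division and ubiquitin genes differed little. CENPN, a centromere protein gene, had 4.71 and 4.32 RPKM (log2 ratio -0.10). MPHOSPH9, a mitotic phosphoprotein gene, had 5.73 and 10.1 RPKM (0.73), and the ubiquitin ligase gene HERC3 had 3.51 and 5.27 RPKM (0.47). None of the 3 passed a log2 ratio of 1 in either direction, but MPHOSPH9 and HERC3 did when ratios were centred (1.32 and 1.06) or the libraries quantile normalized (1.46 and 1.19). Of the remaining genes, C1orf116 (chromosome 1, 205258489 to 205272724), also called specifically androgen-regulated gene, had 3.85 and 55.7 RPKM, a log2 ratio of 3.55. ADAM7, a disintegrin gene known from the epididymis, was listed at 0 in the library labelled VCaP and at 0.296 RPKM in VCaP ERα, and is the only member that reached 1 RPKM in neither library.

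The genes stood higher in the order of expression in VCaP ERα. In the library labelled VCaP, 9 of the 34 genes had at least 10 RPKM and 3 (TSC22D3, PMEPA1 and PPAP2A) were among the 1000 highest entries. In VCaP ERα, 23 had at least 10 RPKM and 16 were among the 1000 highest. Of all 25932 entries, 4858 had at least 10 RPKM in the first library and 3014 in the second. The list held 0.155% of the summed RPKM of all entries in the first library and 1.04% in the second. The order of the genes also differed, with a Spearman rho of 0.23 between the levels of the 34 genes in the 2 libraries, whose depths are not known. No rho was computed over all entries, so whether a low value is particular to these genes was not tested. The 8 genes under 1 RPKM in the library labelled VCaP were ADAM7, EAF2, FKBP5, GNMT, HPGD, LIFR, RAB3B and ZBTB16. Of these, 7 had a log2 ratio above 2, whereas 2.66% of the 14162 entries that were under 1 RPKM in that library did. Most of those entries were also under 1 RPKM in VCaP ERα, where 7 of the 8 genes reached it. The comparison in this class is therefore not like for like. Among the 17 genes from 1 to under 10 RPKM, 7 lay above 2, against 2.33% of 6912 entries, and among the 9 genes at 10 RPKM or more 4 did, against 1.03% of 4858 entries. The share above 2 thus stood over that of all entries in each class of level in the library labelled VCaP, with that limit for the lowest class.

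The entries around each gene were read to set its log2 ratio beside those of its region. The 34 genes lie on 14 chromosomes, at most 5 on any of them. For each gene the 5 nearest entries on either side that do not overlap it were read. The medians of these 10 neighbours ranged from -1.10 (CAMKK2) to 1.23 (PTGER4), and the median over the 34 genes was 0.00. Neighbours under 1 RPKM in both libraries cannot lie beyond 1 or -1, which draws the medians towards 0. Those with at least 1 RPKM in 1 library ranged from 1 of 10 for STK39 to 10 of 10 for RAB3B, with 2 for BMPR1B and C1orf116. The log2 ratios of the 34 genes and their neighbour medians had a Spearman rho of 0.30. Of the 34 genes, 1 had a neighbour median above 1 and 1 below -1, and neither was among the 18 genes above 2. Of these 18, 17 had a higher log2 ratio than any of their 10 neighbours. ZBTB10 was the exception, because its neighbours include TPD52, another member 0.314 Mb away. The 18 were picked for a high log2 ratio, and 2.27% of all entries lay above 2. Their place above their neighbours was therefore largely fixed by that choice. The neighbours of SLC45A3 ranged from -1.20 to 0.83, those of LIFR from -1.02 to 1.27 and those of UAP1 from -2.14 to 0.55. For TSC22D3 the neighbour median was -0.97 and the lowest neighbour was at -2.50, above the gene itself. INPP4B had a neighbour median of -0.10, with 1 neighbour, at -3.98, below it.

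**Figure D3:**
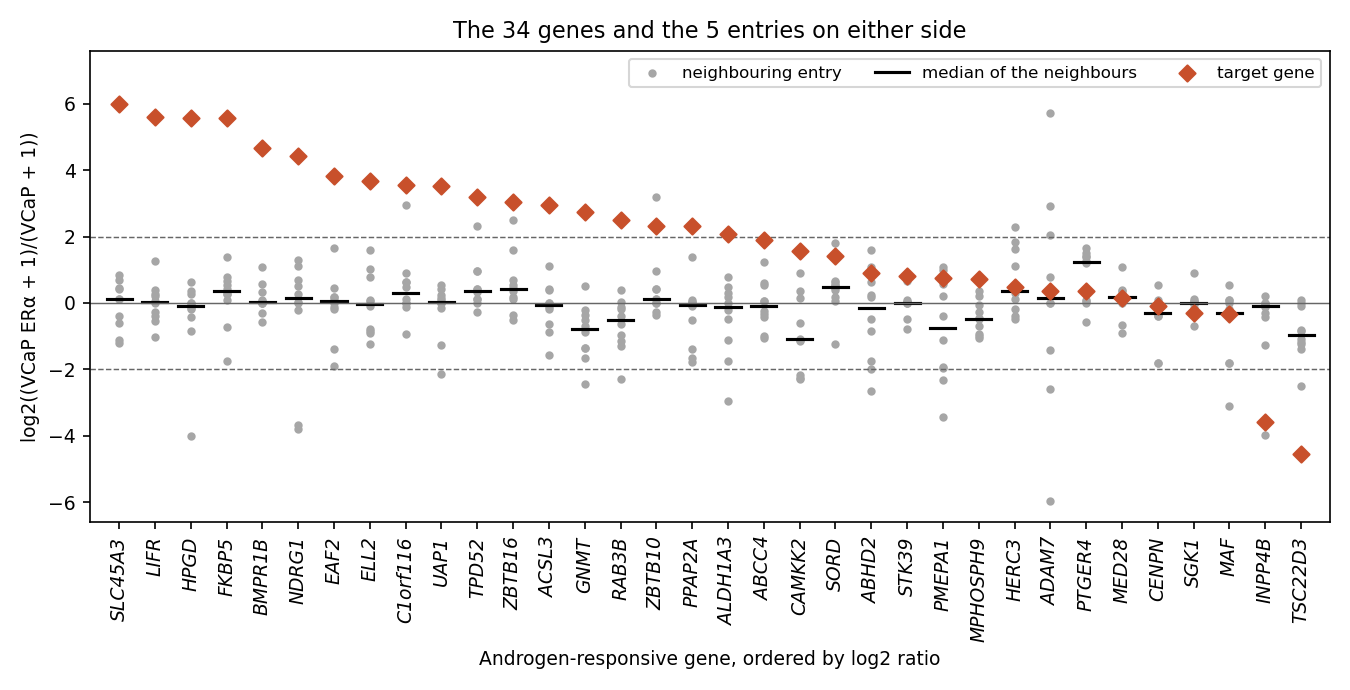
Log2 ratio of each of the 34 androgen-responsive genes (diamonds, ordered from highest to lowest), of the 5 entries on either side (grey points) and the median of these 10 neighbours (bars), with dashed lines at 2 and -2. The bars stay between -1.10 and 1.23 while the diamonds run from 6.00 (SLC45A3) to -4.54 (TSC22D3).

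The log2 ratios of the 5 closest pairs of members on a chromosome were set side by side. SLC45A3 and C1orf116, 1.34 Mb apart on chromosome 1, were both far higher in VCaP ERα, at 6.00 and 3.55, and so were TPD52 and ZBTB10 on chromosome 8, at 3.18 and 2.33. LIFR and PTGER4 are 2.08 Mb apart on chromosome 5 and had log2 ratios of 5.61 and 0.36. CAMKK2 and MPHOSPH9, 1.99 Mb apart on chromosome 12, had 1.58 and 0.73. MAF and CENPN, 1.41 Mb apart on chromosome 16, had -0.34 and -0.10. The entries of 9 members overlap another entry, and whether the authors counted by strand is not given in the sources used here, so reads could be shared there. The longest overlap is that of TPD52 with MRPS28 (111412 bp), and MRPS28 had 32.7 and 25.3 RPKM, a log2 ratio of -0.36 against 3.18 for TPD52. ALDH1A3, whose log2 ratio is the one nearest above 2, overlaps an entry at 0.370 and 1.15 RPKM.

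Steroid receptors and their partners were read from a list of 22 genes. The glucocorticoid receptor gene NR3C1 had 6.44 and 0.666 RPKM, a log2 ratio of -2.16, and the progesterone receptor gene PGR had 3.14 and 0.0954 RPKM (-1.92). The pioneer factor gene FOXA1 was nearly equal, with 139 and 127 RPKM (-0.13), as was GATA2, with 8.01 and 11.0 RPKM (0.42). HOXB13, a homeobox factor of the prostate, had 0.0479 and 54.6 RPKM, a log2 ratio of 5.73. Of the 22 genes, 3 (13.6%) lay above 1 and 6 (27.3%) below -1, and the median was -0.22. Of all symbols with at least 1 RPKM in 1 library, 16.1% lay above 1 and 34.6% below -1, with a median of -0.52. As a whole the list thus lay near all such symbols. The prostate markers listed above were high in the same library as the members with the largest log2 ratios, and their part in the differences was not tested.

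A broader list of 75 androgen-response genes, written from general knowledge and without the 34 members, differed in both directions. Of these genes 33 lay above 1 and 18 below -1, and 19 (25.3%) lay above 2 and 11 (14.7%) below -2. Among all symbols with at least 1 RPKM in 1 library, a level 73 of the 75 genes reached, 4.12% lay above 2 and 11.9% below -2. In the same symbols 16.1% lay above 1 and 34.6% below -1. The share of the list above 2 thus stood well over that of such symbols, while its share below -2 was near theirs. The median log2 ratio of the list was 0.84, lower than the 2.20 of the 34 genes. Among the 3 highest were the kallikrein gene KLK2 (0.0264 and 452 RPKM, log2 ratio 8.79), which could share reads with its paralogs, and the selenoprotein gene SEPP1 (1.15 and 89.4 RPKM, 5.39). The 3 lowest were the keratin genes KRT19 (1625 and 5.44 RPKM, -7.98) and KRT8 (1708 and 41.5 RPKM, -5.33) and the cell cycle kinase gene CDK6 (19.9 and 0.423 RPKM, -3.88). The keratins are general epithelial genes and not particular to androgen action. KLK2 and, in the list of steroid receptors and partners, HOXB13 are also among the prostate markers.

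**Figure D4:**
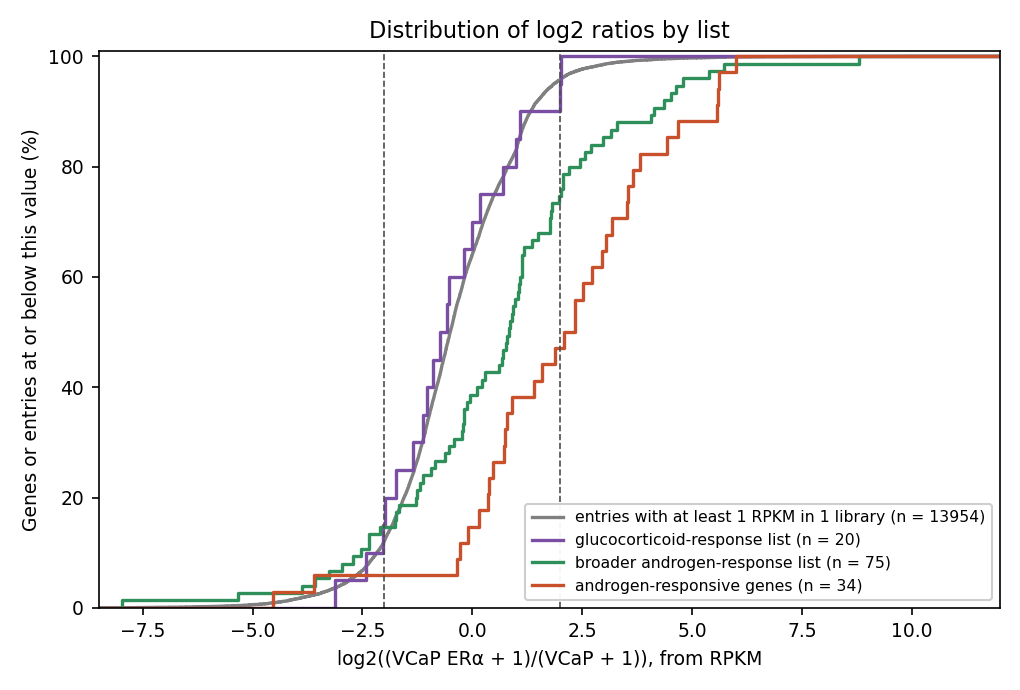
Cumulative share of genes or entries (y axis, %) at or below each log2 ratio (x axis) for the 34 androgen-responsive genes, the 75 genes of the broader androgen-response list, the 20 genes of the glucocorticoid-response list and the 13954 entries with at least 1 RPKM in 1 library. The curve of the 34 genes lies farthest to the right, with a median of 2.20, followed by the broader list at 0.84 and the glucocorticoid list at -0.66.

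FKBP5, TSC22D3, SGK1 and ZBTB16 are known to respond to glucocorticoids as well as androgens. Their log2 ratios were 5.57, -4.54, -0.29 and 3.04, so that they spanned nearly the whole range of the list. In a list of 20 further glucocorticoid-response genes 4 (20.0%) lay above 1 and 8 (40.0%) below -1, with a median of -0.66. Of all symbols 9.25% lay above 1 and 19.9% below -1. Of symbols with at least 1 RPKM in 1 library 16.1% and 34.6% did, near the shares of the list. Among the genes of the list with at least 1 RPKM in 1 library the median was -0.96, against -0.50 for all entries filtered in the same way. The highest were CDKN1C (0.677 and 5.79 RPKM, 2.02), the metallothionein gene MT1X (1.42 and 8.62 RPKM, 1.99) and PCK1 (listed at 0 and at 1.12 RPKM, 1.08). The lowest were CEBPB (23.6 and 1.80 RPKM, -3.13), GADD45B (11.8 and 1.40 RPKM, -2.42) and ZFP36 (14.6 and 2.85 RPKM, -2.02).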

How the data were processed

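RNA from the libraries labelled VCaP and VCaP ERα was sequenced after ribosomal RNA removal with strand-specific preparation. The mouse fibroblast libraries of the series were not used here. The authors deposited RPKM values, with no normalization between the libraries stated. The submitters' processing notes name CASAVA 1.8 and the human build hg18, while the aligner and the counting tool are not given in the sources used here. The number of reads per library is likewise not given, so no interval or detection floor was computed.

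The symbol field of each entry was split, and each symbol was represented by its entry of highest mean RPKM. Entries with several symbols count once for each symbol in shares over symbols, while ranks are over entries. Log2 ratios were computed after adding 1 RPKM, and no filter was applied. No test was made, since each condition has 1 library. The members and the gene lists were chosen with earlier results of these data known. The genes named are all 34 members, 6 receptors and partners, and the 3 highest and 3 lowest genes of the broader androgen and glucocorticoid lists with at least 1 RPKM in 1 library, except for items that are not reported here. Markers named beyond these, MRPS28, and the lipid synthesis genes, coactivators and chaperones of the closing section were chosen after their values were seen. A planned search of human promoters for response elements was not run, because no human promoter sequences were used here. The summary functions were tested on simulated data. The values were recomputed with a pseudocount of 0.1, with a filter that kept symbols reaching 1 RPKM in 1 library, after centring on the median of entries that reached 1 RPKM in each library, after quantile normalization, and with the entries of a symbol summed. A count within 1.5 times and a log2 ratio within 0.58 of the original were taken as unchanged. Python 3.11.15, numpy 2.4.6, pandas 2.3.3, scipy 1.17.1 and matplotlib 3.10.9 were used.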

Additional observations from a re-analysis of the deposited data

How the results depend on the processing

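The counts of androgen-responsive genes above 2, below -2, above 1 and below -1 and the count of higher genes stayed within 1.5 times under all 5 alternatives. Between 18 and 21 genes lay above 2 and 2 below -2 in each. The 18 genes above 2 stayed above it under all 5. Centring added 2 genes, ABCC4 and CAMKK2, and quantile normalization added 3, the same genes and SORD. Centring or quantile normalization put CENPN, MAF and SGK1 above 0, with 32 genes higher. Either put 26 genes above 1, the added ones being ABHD2, STK39, PMEPA1, MPHOSPH9 and HERC3. Centring raised the median of the 34 genes to 2.79 and that of the broader list to 1.43, brought that of the glucocorticoid list to -0.07 and left 5 of its genes below -1, while quantile normalization left 11 genes of the broader list below -1. The shares of all symbols above 2 and below -2 depended most on the setting. They were 16.4% and 12.2% with a pseudocount of 0.1, 4.12% and 11.9% with the filter, 4.88% and 3.50% when centred, and 3.97% and 3.98% after quantile normalization. The share of the 34 genes above 2 was larger than that of all symbols under each setting. No paired analysis was possible because each condition has 1 library. Without replicates or read totals, small differences such as that of CENPN cannot be set against any spread.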

Other observations

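Within the broader androgen-response list, 3 genes of sterol synthesis and its control, picked after their values were seen, were higher in VCaP ERα. HMGCS1, an early enzyme of the pathway, had 17.7 RPKM in the library labelled VCaP against 182 RPKM in VCaP ERα, with a log2 ratio of 3.29. IDI1, an isoprenoid isomerase, had 23.6 and 192 RPKM (2.97). INSIG1, which restrains sterol synthesis, had 45.1 and 299 RPKM (2.70). Fatty acid genes of the list went in both directions. The desaturase gene SCD was lower, with 131 and 67.8 RPKM (-0.94). Another desaturase gene, FADS1, had 13.6 and 26.9 RPKM (0.93), and the elongase gene ELOVL5 had 8.68 and 31.9 RPKM (1.76). The part of culture conditions or of cell type in these values was not tested.

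Among the partners of steroid receptors, the coactivator gene NCOA3 had 148 RPKM in the library labelled VCaP against 3.51 RPKM in VCaP ERα, with a log2 ratio of -5.04, the lowest of the 22 genes read. NCOA1 had 8.10 and 6.89 RPKM (-0.21) and NCOA2 had 22.1 and 15.2 RPKM (-0.51). The acetyltransferase genes also differed from each other, with 14.5 and 2.65 RPKM for CREBBP (-2.09) and 7.26 and 6.00 RPKM for EP300 (-0.24). The chaperone genes HSP90AA1 (106 and 113 RPKM, 0.09), HSPA8 (567 and 829 RPKM, 0.55) and HSP90AB1 (329 and 229 RPKM, -0.52) were high in both libraries. Of the co-chaperone genes, BAG1 was lower in VCaP ERα, with 29.8 and 9.60 RPKM (-1.54). STIP1 had 56.7 and 78.1 RPKM (0.46) and PTGES3 had 41.1 and 53.0 RPKM (0.36). FKBP4, a relative of FKBP5 that also binds HSP90, had 55.5 and 30.9 RPKM (-0.82), so the pair lay on opposite sides of 0. These genes were named after their values were seen.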
